A study of Homo sapiens with 6 samples.

Results

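CXCL1, CXCL2, CXCL3, CXCL5, CXCL6 and CXCL8 are CXC chemokines of human chromosome 4 that attract neutrophils, and their mRNA was followed in SiHa cells with and without added BRCA1. These 6 genes of 58174 in the files were chosen by their FPKM in the OV-BRCA1 group against the NC group, which was known beforehand. Their values between the groups are therefore given as a description, without a test. SiHa is an established line of cervical squamous carcinoma cells. Cells were given GV230-BRCA1 by lipofection (OV-BRCA1, 3 samples) or GV230 without an insert (NC, 3 samples), and mRNA was sequenced 48 h later, which compares cells with more BRCA1 mRNA against cells that went through the same transfection. The expression was transient, in 1 cell line, and the study's methods call the 3 samples of a group biological replicates. The unit is FPKM, fragments scaled for transcript length and sequencing depth, summed here over the transcripts of each gene.

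Chemokines are small secreted proteins that guide leukocytes along a concentration gradient. CXC chemokines with the amino acids glutamate, leucine and arginine before their first cysteines bind CXCR2, and CXCL6 and CXCL8 also bind CXCR1, on neutrophils. Epithelial and tumour cells switch these genes on within hours of interleukin-1, tumour necrosis factor or Toll-like receptor signals. NF-kB acts at the promoters, often with AP-1 or C/EBP factors, and AU-rich elements in the 3' UTR, built from ATTTA repeats, limit how long the mRNAs last.

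The 6 genes lie within 358.8 kb on GRCh38. CXCL8 (chr4:73740506-73743716), CXCL6 (chr4:73836497-73849064) and CXCL1 (chr4:73869393-73871242) are on the plus strand, and CXCL5 (chr4:73995642-73998779), CXCL3 (chr4:74036589-74038807) and CXCL2 (chr4:74097035-74099293) on the minus strand. What they share upstream is shown first, as 30 bases of the RefSeq promoters (GRCh38.p14), in the direction of transcription, with matches to the NF-kB motif GGNNTTNCC in capitals. The windows lie at chr4:73740468-73740497 (CXCL8), chr4:73869305-73869334 (CXCL1), chr4:74099253-74099282 (CXCL2), chr4:74038748-74038777 (CXCL3), chr4:73998748-73998777 (CXCL5) and chr4:73836579-73836608 (CXCL6), on the strand of each gene.
CXCL8: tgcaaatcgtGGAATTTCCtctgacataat
CXCL1: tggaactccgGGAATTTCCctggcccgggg
CXCL2: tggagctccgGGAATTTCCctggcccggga
CXCL3: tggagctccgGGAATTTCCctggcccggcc
CXCL5: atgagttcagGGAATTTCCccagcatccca
CXCL6: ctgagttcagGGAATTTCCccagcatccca

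The same letters GGAATTTCC stood in all 6 promoters, with the first base between 91 and 77 bases before the RefSeq start. Of 34943 RefSeq promoters searched over 250 bases upstream on both strands, 0.415% held these letters and 15.0% held the wider motif GGNNTTNCC. The letters searched are those that the 6 promoters of these related genes share, so the 0.415% is no test of their presence there. The sequences around the match fell into 3 kinds, one of CXCL1, CXCL2 and CXCL3, one of CXCL5 and CXCL6, and CXCL8 alone. GENCODE release 29 places some starts further upstream. In CXCL2, CXCL5 and CXCL6 the window lies inside the first exon of the longest transcript, which for CXCL2 was also the most abundant, and in CXCL3 inside that of a minor transcript, so the start in use in these cells decides whether it is upstream. A match is a description of the letters and not a measured binding site.

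For CXCL1 and CXCL8 a longer stretch free of any GENCODE exon of the gene is shown, because these were the most abundant of the 6 mRNAs in OV-BRCA1 cells and their upstream sequences differ. CXCL1 is shown at chr4:73869243-73869392 and CXCL8 at chr4:73740419-73740505, both on the plus strand. Capitals mark matches to GGNNTTNCC and to TGANTCA, the AP-1 motif.
CXCL1: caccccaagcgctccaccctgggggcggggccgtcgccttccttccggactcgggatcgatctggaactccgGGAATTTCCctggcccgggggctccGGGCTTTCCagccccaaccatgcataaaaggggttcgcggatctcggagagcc
CXCL8: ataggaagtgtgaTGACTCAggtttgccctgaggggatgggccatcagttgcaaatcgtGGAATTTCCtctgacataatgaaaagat

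CXCL1, CXCL2 and CXCL3 each had a second match to the wider motif, 53 to 45 bases before the start, which CXCL5, CXCL6 and CXCL8 lacked in these windows. CXCL8 had a match to TGANTCA, found in 6.59% of promoters, 137 to 131 bases before its start, and none of the other 5 had one. The letters TATAAA on the coding strand, in 6.82% of promoters, were found in CXCL8 only among the 6. TTGCNNAA, a C/EBP motif held by 9.06% of promoters on either strand, was found in CXCL2 only among the 6. Only exact letters were counted, so near matches such as ttgcaaat in CXCL8 and cataaa in CXCL1 were left out. A motif not found is therefore not a site shown to be absent. The PPBP and PF4V1 promoters, of platelet chemokines that lie among the 6 genes, held no match to GGNNTTNCC. Of the other nearby genes searched, COX18 held a match, GGACTTTCC, further upstream than those of the 6 chemokines. EPGN, EREG, AREG, BTC, MTHFD2L and ANKRD17 held none. A match to the wider motif was therefore not confined to the chemokines in this region.

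**Figure D1:**
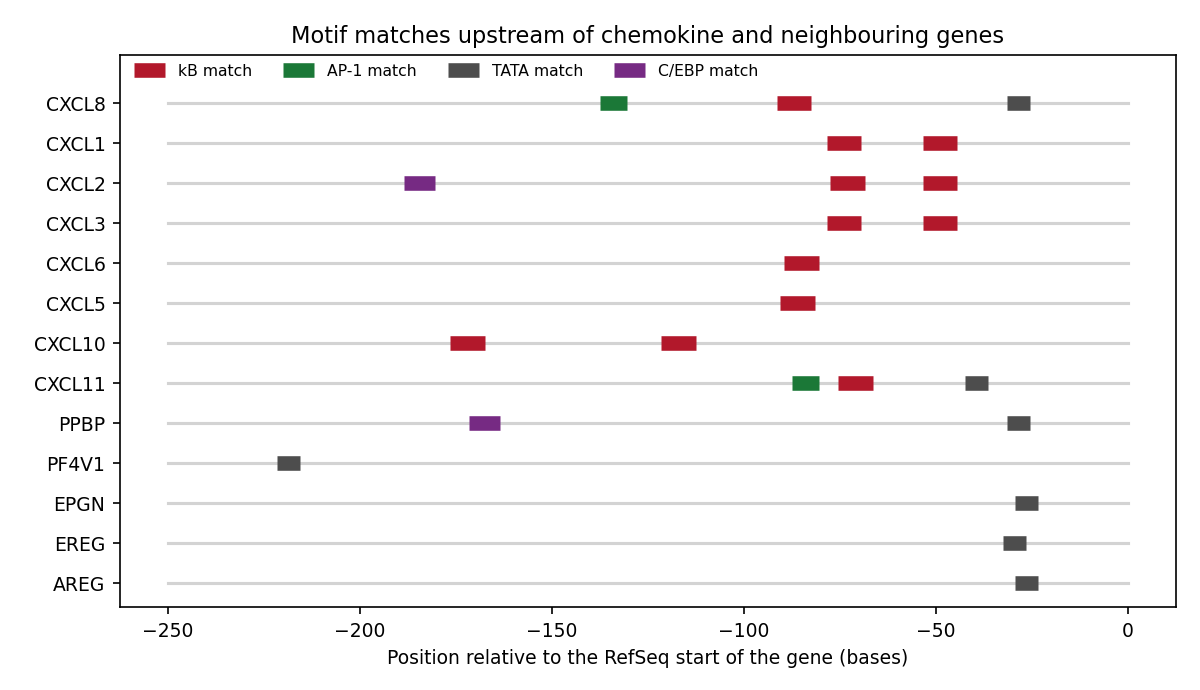
Matches to the kB, AP-1, C/EBP and TATA motifs, with the letters given in the text, in the 250 bases before the RefSeq start, 1 line per gene. All 6 chemokines of the group have a kB match between 91 and 69 bases before the start. EPGN, EREG and AREG, growth factor genes nearby, have none. COX18, another gene nearby, held a kB match further upstream, as given in the text.

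The 3' UTRs of all 6 genes held ATTTA. CXCL2 held 10 ATTTA in 721 bases, or 13.9 per kb, a density that 0.513% of 10527 tested genes with a 3' UTR reached. CXCL3 held 10.4 per kb, reached by 1.19% of these genes, CXCL8 7.19 (3.44%) and CXCL1 7.08 (3.63%), CXCL5 5.51 (7.5%) and CXCL6 5.36 (8.03%). By number alone CXCL5 held the most, 11, and 11.8% of genes held as many as CXCL2 or more. The densest 30 bases are shown for CXCL2 (chr4:74097590-74097619, minus strand, 5 overlapping ATTTA) and CXCL8 (chr4:73743108-73743137, plus strand, 4 ATTTA), from the GENCODE transcripts, with ATTTA in capitals.
CXCL2: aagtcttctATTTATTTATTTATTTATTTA
CXCL8: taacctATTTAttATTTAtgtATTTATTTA

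CXCL8, CXCL1, CXCL2 and CXCL3 mRNA was higher in every OV-BRCA1 sample than in any NC sample, as it was for 23.4% of the 16321 genes tested, and none of the 6 was lower throughout, as 27.4% of genes were, while CXCL5 and CXCL6 were listed at 0 in all 6 samples. In bulk RNA a higher level in each cell and a larger number of expressing cells cannot be told apart. CXCL8, or interleukin-8, the chemokine first known as a neutrophil attractant, had 125, 121 and 131 FPKM in OV-BRCA1 samples 1 to 3 and 5.39, 5.82 and 6.29 in NC samples 1 to 3. The groups were far apart, with means of 125.8 ± 5.02 and 5.84 ± 0.450 FPKM (SD, n = 3 each). The ratio of means was 21.6, and single pairs of samples gave ratios from 19.3 to 24.3. On the log2(FPKM + 1) scale used for all genes the difference was 4.22 with a standard error of 0.0679. It ranked 5 from the highest among the 16321 genes tested, those that reached 0.5 FPKM in 3 samples or more. CXCL1, CXCL2 and CXCL3 ranked 44, 108 and 172.

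CXCL1, known as GRO-alpha from its growth effect on melanoma cells, had 86.1, 84.9 and 84.8 FPKM in the OV-BRCA1 group and 11.4, 10.4 and 10.3 in the NC group. Samples of a group were close to each other and the groups did not overlap. The means were 85.3 ± 0.697 and 10.7 ± 0.602 FPKM, a ratio of 7.96 and a log2 difference of 2.88 (SE 0.0559).

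CXCL2, known as GRO-beta, had 47.1, 45.5 and 52.4 FPKM in the OV-BRCA1 group against 10.1, 10.7 and 9.62 in the NC group. The groups were apart, with OV-BRCA1 sample 3 the highest. The means were 48.4 ± 3.61 and 10.2 ± 0.539 FPKM, a ratio of 4.76 and a log2 difference of 2.14 (SE 0.0742).

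CXCL3, known as GRO-gamma, was the lowest of the detected chemokines, with 8.89, 8.84 and 8.60 FPKM in the OV-BRCA1 group and 1.89, 1.80 and 2.12 in the NC group. The groups again did not overlap. The means were 8.78 ± 0.157 and 1.94 ± 0.167 FPKM, a ratio of 4.53 and a log2 difference of 1.74 (SE 0.0771). With a pseudocount of 1 this log2 difference is the most understated of the 4, because the NC values are near that pseudocount.

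CXCL5, an epithelial chemokine first described as ENA-78, and CXCL6, first described as GCP-2, were listed at 0 in every sample of both groups. None of 16 housekeeping genes checked was at 0 in any sample. The files hold no counts, so no upper limit is given for the genes at 0.

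**Figure D2:**
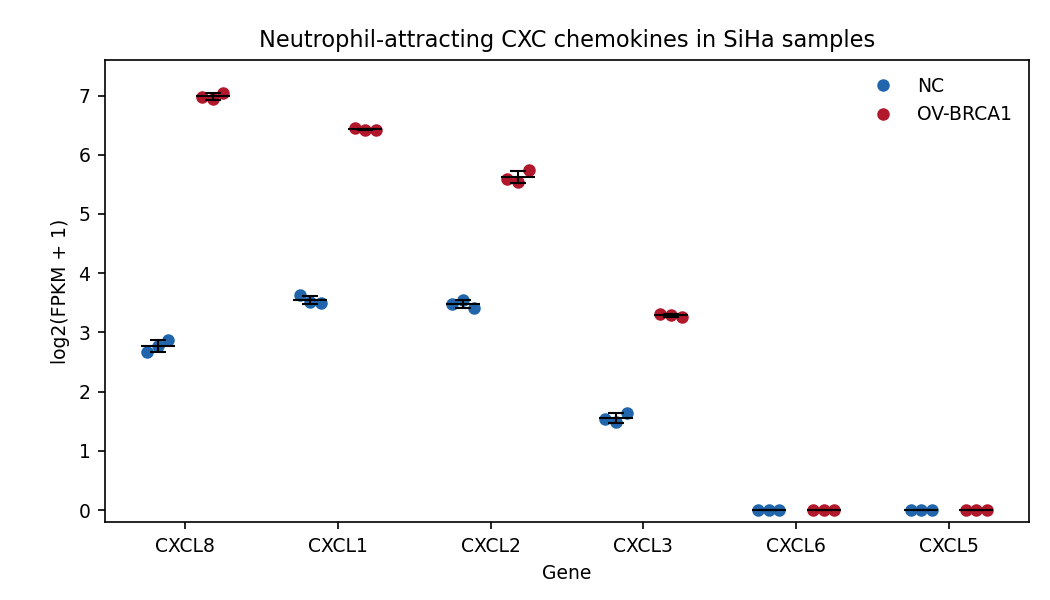
log2(FPKM + 1) of the 6 chemokines in each sample, NC in blue and OV-BRCA1 in red, with the mean and SD of 3 samples as bars. CXCL8, CXCL1, CXCL2 and CXCL3 have separate groups, and CXCL6 and CXCL5 lie at 0.

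By the criterion applied to all genes, an adjusted p below 0.05 with an absolute log2 difference above 1, 4 of the 6 genes counted as higher, and 2.89% of the genes tested did so (472 genes). None counted as lower, beside 1.10% of the genes tested. Since this comparison chose the 6 genes, nothing is read from that count. The 4 genes had at least 0.5 FPKM in all 6 samples, so none entered through the OV-BRCA1 group alone. The estimated fragments behind the NC values were 129 to 182 for CXCL8, 195 to 218 for CXCL1, 156 to 206 for CXCL2 and 32 to 45 for CXCL3. CXCL3 is therefore the least precisely counted.

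The order of the 6 mRNAs by level also differed between the groups. In NC cells CXCL1 (10.3 to 11.4 FPKM) and CXCL2 (9.62 to 10.7) had overlapping ranges at the top, followed by CXCL8 and CXCL3 without overlap. In OV-BRCA1 cells the order was CXCL8, CXCL1, CXCL2 and CXCL3, and no ranges overlapped. CXCL8 was thus below CXCL1 and CXCL2 in NC cells and above both in OV-BRCA1 cells.

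Summed over the 6 genes, the level was 267, 260.5 and 277 FPKM in the OV-BRCA1 samples and 28.8, 28.8 and 28.3 in the NC samples. CXCL8 supplied 46.9% ± 0.458 (SD, n = 3) of this sum in OV-BRCA1 cells and 20.4% ± 1.76 in NC cells. CXCL1 supplied 31.8% ± 1.06 and 37.4% ± 1.85, and CXCL2 18.0% ± 0.781 and 35.5% ± 1.62. The share of CXCL2 in the OV-BRCA1 group, 17.5% to 18.9%, was below every NC value, 34.0% to 37.2%. Among all tested genes ordered by mean FPKM, CXCL8 stood at rank 8565 in NC and 496 in OV-BRCA1 cells, and CXCL1 at 6197 and 770. CXCL2 stood at 6423 and 1508, and CXCL3 at 12203 and 7020.

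The share of each gene's FPKM assigned to its most abundant transcript also differed for CXCL8, and is given without a test. The 4-exon protein-coding transcript ENST00000307407 took 93.4%, 93.6% and 93.6% of CXCL8 in the OV-BRCA1 samples and 80.1%, 78.4% and 73.3% in the NC samples. All OV-BRCA1 shares were above all NC shares. A transcript of CXCL8 with a retained intron, ENST00000483500, took 2.10% ± 0.176 and 8.50% ± 3.64 (SD, n = 3).

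For CXCL2 the protein-coding transcript ENST00000508487 took 79.4%, 81.4% and 84.6% in OV-BRCA1 and 60.4%, 68.5% and 76.1% in NC samples, again without overlap. For CXCL1 the share of ENST00000395761 was 98.6% ± 1.52 and 94.8% ± 3.96. For CXCL3 the share of ENST00000296026 was 70.8%, 85.1% and 53.7% against 43.4%, 52.4% and 54.3%, and the groups overlapped. These shares were estimated by the authors' quantification from fewer fragments in the NC group, and the part of that in the difference was not tested.

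**Figure D3:**
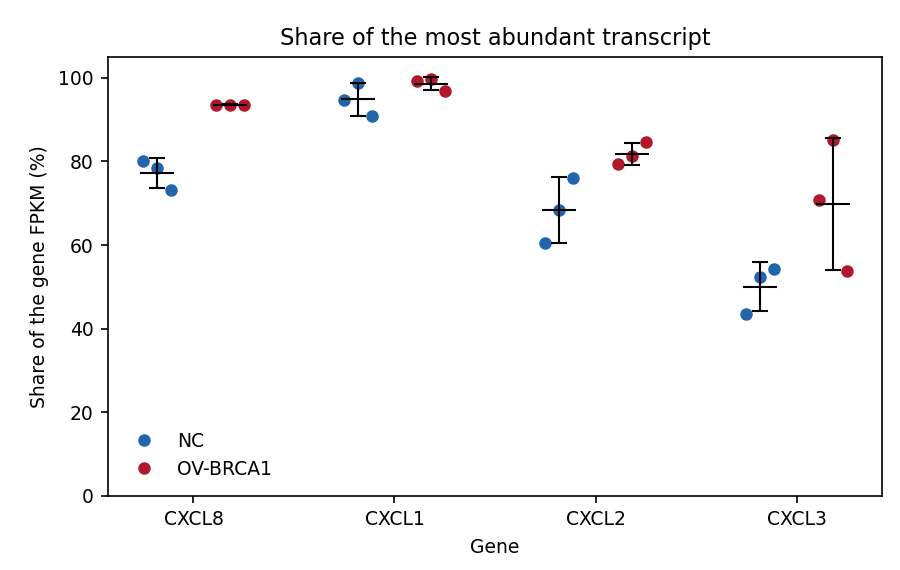
Share of the gene's FPKM in its most abundant transcript (%, linear axis from 0) for CXCL8, CXCL1, CXCL2 and CXCL3 in each sample, NC in blue and OV-BRCA1 in red, with mean and SD of 3 samples. The groups are separate for CXCL8 and CXCL2 and overlap for CXCL1 and CXCL3.

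CXCL1, CXCL2 and CXCL3 are close copies of each other, so reads could be split among them. Their coding sequences were 93.5% (CXCL1 and CXCL2), 94.4% (CXCL2 and CXCL3) and 90.7% (CXCL1 and CXCL3) identical, while CXCL8 was 52.7% to 58.0% identical to the other 5. Their most abundant transcripts shared no stretch of 150 bases. Of 1048 overlapping windows of 50 bases in CXCL1, 60 were also in CXCL2 and 6 in CXCL3. Of 1169 such windows in CXCL2, 54 were also in CXCL3. The levels of these 3 genes are uncertain to that extent, and CXCL8 shared no 50 bases with any of them.

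The genes around the chemokines on chromosome 4 were compared to see whether the difference was shared by position. Among 39 other genes annotated within 1 Mb of the outermost chemokines, 21 were at 0 in all samples and 8 could be tested. Over the whole files, 25427 to 26424 of 58174 genes were above 0 in a sample. Of the 8 tested neighbours, EPGN alone passed the criterion, as higher, beside 2.89% of all genes tested. With an adjusted p below 0.05, 4 had a higher level, against 16.4% of all genes tested. COX18 alone had a lower one, against 18.9%. Between CXCL8 and CXCL2 lie 10 other genes, and 9 of them, including the platelet chemokine genes PPBP, whose product also attracts neutrophils, PF4 and PF4V1, were at 0 in all samples.

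EPGN, EREG, AREG and BTC encode ligands of the epidermal growth factor receptor and lie beyond CXCL2. EPGN rose from 0.644, 0.408 and 0.629 FPKM in NC to 3.29, 2.30 and 2.36 in OV-BRCA1 samples, a log2 difference of 1.22 (SE 0.135, limma with Benjamini-Hochberg adjustment, adjusted p = 0.00117). EPGN passed the filter on low values through the OV-BRCA1 group, with 2 NC samples above 0.5, and in its most abundant transcript the difference was 0.44 and did not pass. EREG, among the most abundant of these ligands, had 43.4, 43.3 and 42.9 FPKM in NC and 69.5, 74.3 and 71.8 in OV-BRCA1 samples, without overlap. Its log2 difference was 0.72 (SE 0.0459, limma adjusted p = 0.000134).

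BTC rose by 0.98 on the log2 scale (limma adjusted p = 0.00241), just short of 1, and AREG by 0.34 (adjusted p = 0.00506). MTHFD2L, a mitochondrial folate enzyme gene between CXCL2 and EPGN, had a log2 difference of 0.11 (SE 0.123, limma adjusted p = 0.513). On the other side, COX18, needed for cytochrome oxidase assembly, fell by 0.51 (limma adjusted p = 0.0112), but had a difference of 0.033 in its most abundant transcript, and ANKRD17 had a difference of 0.20 (adjusted p = 0.131). The 4 detected chemokines, at 1.74 to 4.22, were chosen for their values in this comparison and the neighbours by position, so their sizes are not compared.

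**Figure D4:**
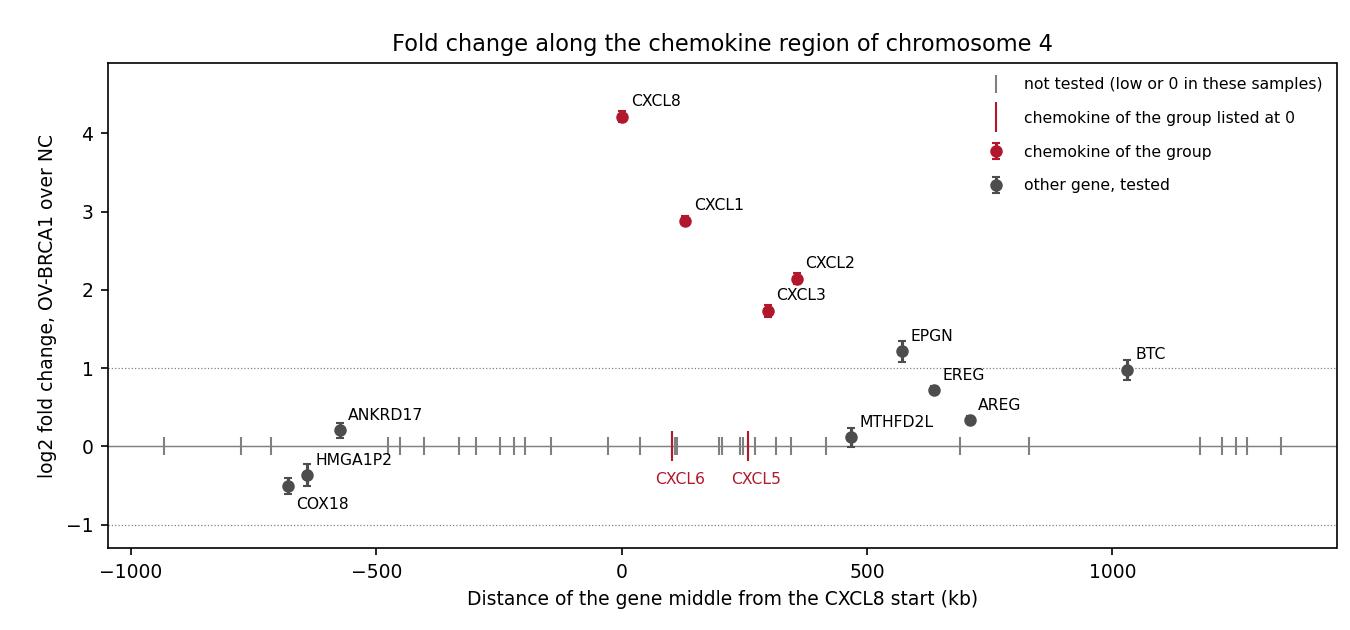
log2 difference between OV-BRCA1 and NC (limma, with its standard error) of genes within 1 Mb of the outermost chemokines, against the distance of the gene's middle from the start of CXCL8 in kb. The 4 chemokines in red, chosen for their values in this comparison, lie at 1.74 to 4.22 and the 8 tested neighbours at −0.51 to 1.22, and ticks on the line at 0 mark genes that were not tested.

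CXCL9, CXCL10 and CXCL11, interferon-induced chemokines that act on CXCR3 of lymphocytes, lie further along chromosome 4. CXCL10 had 0.364, 0.218 and 0.359 FPKM in the NC samples and 20.5, 21.2 and 24.5 in the OV-BRCA1 samples. This was a log2 difference of 4.13 (SE 0.0992, limma adjusted p = 3.88e-06) on the log2(FPKM + 1) scale, which understates changes from levels near 0. The ratio of the FPKM means was 70.4 for CXCL10 and 21.6 for CXCL8. CXCL11 was at 0, 0 and 0.181 FPKM in NC and at 5.21, 6.39 and 7.32 in OV-BRCA1 samples (limma adjusted p = 4.87e-05), and CXCL9 was at 0 in 5 samples and at 0.0404 in OV-BRCA1 sample 2. CXCL10 and CXCL11 passed the filter on low values only through the OV-BRCA1 group. CXCL16, a chemokine made by many cells, rose by 0.66 on the log2 scale (limma adjusted p = 0.000402).

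Receptor mRNA was at or near 0. CXCR1 and CXCR2 were listed at 0 in all 6 samples, and ACKR1, a scavenging receptor that binds these chemokines, reached 0.0723 FPKM at most.

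Cytokines that switch on these chemokines were mostly low. Of 16 listed, 6 were tested, none passed the criterion, 4 had an adjusted p below 0.05 with a higher level and 1 with a lower one, and the median log2 difference was 0.73. Over all genes the median was −0.04, 2.89% passed the criterion as higher and 1.10% as lower, and 16.4% and 18.9% had an adjusted p below 0.05. Of the 6, 2 passed the filter on low values only through the OV-BRCA1 group, IL1A among them, so these counts and the median are no support for a rise of the list. IL1A, a membrane and nuclear form of interleukin-1, had 0.337, 0.253 and 0.231 FPKM in NC and 1.42, 1.62 and 1.44 in OV-BRCA1 samples, without overlap (log2 difference 0.97, limma adjusted p = 0.000508). IL1B, the secreted form, had 0.565, 0.612 and 0.974 against 2.48, 2.20 and 2.29 (log2 difference 0.96, limma adjusted p = 0.00158). Both stopped just short of a log2 difference of 1 and passed it with a pseudocount of 0.1, where the values were 2.10 and 1.60. IL1A, IL1B and TNF were picked out once their values were known.

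IL18, by far the most abundant of the list, did not pass, with 69.0 ± 12.4 and 71.5 ± 12.4 FPKM (SD, n = 3 each). TGFA, a growth factor, rose by 0.72 on the log2 scale (limma adjusted p = 0.00374). TNF, a major inducer of these chemokines, stayed at or under 0.195 FPKM in all samples and was not tested.

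Of 18 receptors and adaptors for such signals, 16 were tested, 1 passed the criterion, 7 had an adjusted p below 0.05 with a higher level and 1 with a lower one, with a median log2 difference of 0.49. Over all genes 2.89% passed the criterion as higher, and 16.4% had an adjusted p below 0.05 with a higher level and 18.9% with a lower one. With the replicate block 9 were higher and 0 lower by the adjusted p. In 2 of the 16 no NC sample reached 0.5 FPKM. The gene that passed the criterion was TLR3, a sensor of double-stranded RNA, which met the filter on low values through the OV-BRCA1 group. It had 0.619, 0.407 and 0.460 FPKM in NC and 1.83, 2.87 and 3.01 in OV-BRCA1 samples. Its log2 difference was 1.24 (SE 0.155, limma adjusted p = 0.00183) and 0.95 in the most abundant transcript, where TLR4, picked out once its values were known, passed instead at 1.14. LTBR and TNFRSF1A, receptors of the tumour necrosis factor family and the most abundant of the list, had differences of −0.07 (limma adjusted p = 0.5) and −0.13 (adjusted p = 0.398).

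All 16 NF-kB factors and inhibitors were tested, and 6 had an adjusted p below 0.05 with a higher level and none with a lower one, beside 16.4% and 18.9% of all genes, with a median log2 difference of 0.29. RELB, a subunit of the noncanonical pathway, had 3.29, 2.02 and 3.30 FPKM in NC and 9.09, 7.81 and 8.39 in OV-BRCA1 samples, and alone passed the criterion, as 2.89% of all genes did. The difference was 1.30 (SE 0.156, limma adjusted p = 0.00153), but 0.88 without a pass in its most abundant transcript. NFKBIA, the inhibitor that NF-kB itself induces, had 65.4 ± 3.04 and 69.1 ± 10.6 FPKM and a log2 difference of −0.07 (SE 0.109, limma adjusted p = 0.66).

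BCL3, a nuclear partner of NF-kB, had a log2 difference of −0.45 (SE 0.163, limma adjusted p = 0.0775). Other genes of the list, picked out once their values were known, were NFKB2 at 0.84 (limma adjusted p = 0.000205) and TNFAIP3, a feedback inhibitor, at 0.76 (adjusted p = 0.000656). Both passed the criterion in their most abundant transcripts, at 1.11 and 1.03. RELA, the subunit of the canonical pathway and picked out likewise, had 33.5, 15.8 and 19.9 FPKM in the OV-BRCA1 samples and 37.6, 39.6 and 37.4 in NC, a log2 difference of −0.77 (SE 0.249, limma adjusted p = 0.0544). It passed as lower without OV-BRCA1 replicate 1, at −1.06, so that sample decided its call.

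The AP-1, C/EBP and EGR list split by gene. Of 13 tested genes, 1 passed as higher and 3 as lower, 7 had an adjusted p below 0.05 with a lower level and 1 with a higher one, and the median log2 difference was −0.23. Over all genes 2.89% passed as higher and 1.10% as lower, and 18.9% had an adjusted p below 0.05 with a lower level and 16.4% with a higher one. FOSL1, an AP-1 subunit, rose from 20.5, 13.5 and 17.4 FPKM in NC to 68.2, 74.4 and 92.8 in OV-BRCA1 samples (log2 difference 2.14, SE 0.172, limma adjusted p = 0.000337). FOS, another AP-1 subunit, fell from 309, 329 and 299 to 68.2, 70.6 and 72.9 FPKM (log2 difference −2.13, SE 0.0525, limma adjusted p = 3.88e-06).

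FOSB fell by 1.68 on the log2 scale (limma adjusted p = 1.46e-05). In its most abundant transcript the difference was −1.45, without a pass (adjusted p = 0.424). ATF3, a stress-induced repressor, fell by 1.24 (limma adjusted p = 0.00226). JUNB, the most abundant of the list by the mean of all samples, ahead of FOS, fell by 0.28 (limma adjusted p = 0.00267). AP-1 subunits thus differed in direction in the same samples.

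Proteins that bind AU-rich mRNA or degrade it were all tested. Of these 12 genes none passed the criterion, 4 had an adjusted p below 0.05 with a higher level and 2 with a lower one, beside 16.4% and 18.9% of all genes, and the median was 0.34. With the replicate block these were 3 and 1. KHSRP, which promotes decay and was the most abundant with HNRNPD, had a log2 difference of −0.15 (limma adjusted p = 0.0452), and the adjusted p was 0.0808 with the replicate block and between 0.00371 and 0.125 over all alternatives. HNRNPD had a log2 difference of −0.16 (limma adjusted p = 0.313), but −1.65 in its most abundant transcript (adjusted p = 0.000159), which passed.

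Other inflammatory factors, among them growth factors of neutrophils, proteases and a chemokine for other leukocytes, formed a list chosen with earlier results known. Of 16 listed, 13 were tested, and 10 passed the criterion as higher and none as lower, beside 2.89% and 1.10% of all genes. The median log2 difference of the 13 was 1.74, and 1 of them passed the filter on low values only through the OV-BRCA1 group. CCL20, which attracts lymphocytes and dendritic cells, had 1.77, 1.19 and 0.768 FPKM in NC and 32.4, 34.1 and 35.1 in OV-BRCA1 samples (log2 difference 3.98, SE 0.162, limma adjusted p = 2.14e-05). CSF3, the main growth factor of neutrophils, had 0.0767, 0.289 and 0.114 against 3.49, 3.83 and 3.31 FPKM (log2 difference 1.97, SE 0.106, limma adjusted p = 6.76e-05). CSF3 was the gene that passed the filter in this way.

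PTGS2, the inducible cyclooxygenase, rose by 2.90 on the log2 scale (limma adjusted p = 6.07e-06), and LIF, a cytokine of the interleukin-6 family, by 2.26 (adjusted p = 3.43e-06). The collagenase MMP1 and the stromelysin MMP3 rose by 3.17 and 3.02 (limma adjusted p = 6.03e-06 and 6.83e-06). IL6 was the most abundant, at 169.9, 156 and 183 FPKM in NC and 566, 587 and 548 in OV-BRCA1 samples, a log2 difference of 1.74 (SE 0.0662, limma adjusted p = 1.57e-05). C3, the central complement component, had a log2 difference of −0.16 (limma adjusted p = 0.0482), and the adjusted p was 0.0973 with the replicate block and between 0.0201 and 0.334 over all alternatives.

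**Figure D5:**
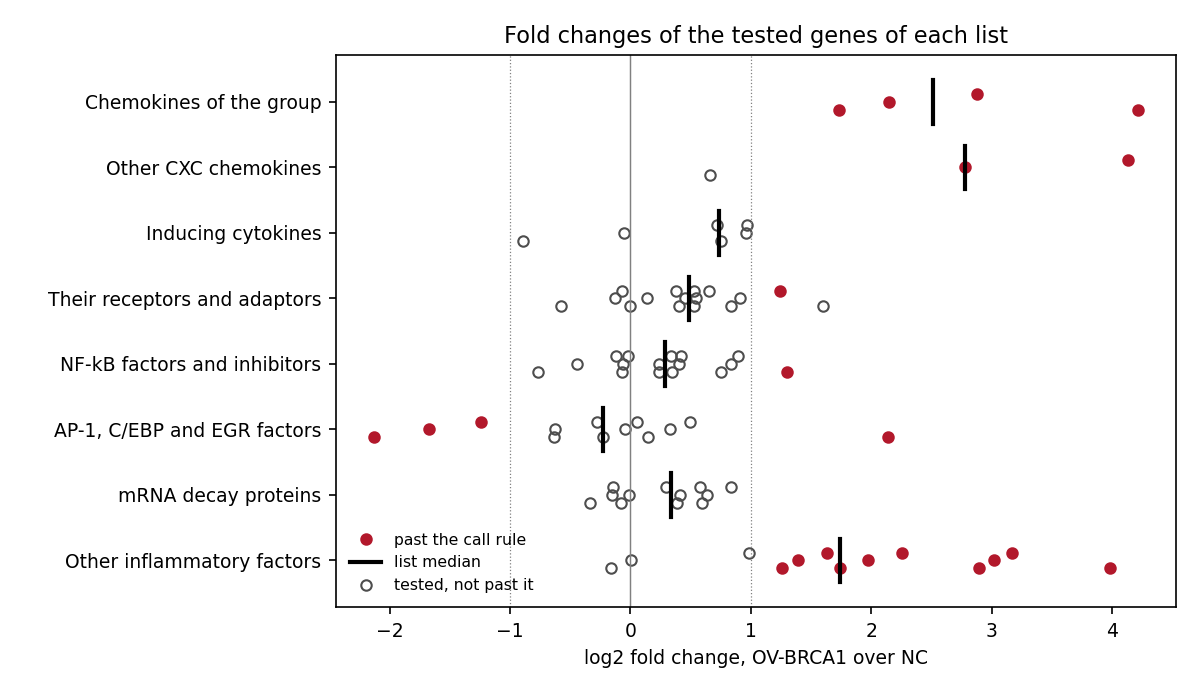
log2 difference between OV-BRCA1 and NC of every tested gene of each list, filled where it passed the criterion (adjusted p below 0.05 and absolute log2 difference above 1) and open where it did not, with the list median as a bar. Medians were 2.51 for the chemokines of the group, given without a test, 1.74 for other inflammatory factors, 0.29 for the NF-kB list and −0.23 for the AP-1, C/EBP and EGR list.

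Promoters with the letters GGAATTTCC were also followed in other genes. Of 137 gene symbols with such a promoter, 83 matched a gene in the files, and both counts include the 6 chemokines. With the 6 left out, 50 were tested. Of these 50, 5 passed as higher (10.0%, beside 2.89% of all genes) and none as lower, and the median log2 difference was 0.13. Since 3 of the 5 passed the filter on low values only through the OV-BRCA1 group, as did 83 of the 472 higher genes, that filter bears on the 10.0%. The 5 were CXCL10, CXCL11, OAS3, ICAM1 and CGA, of which the last 3 were picked out once their values were known. ICAM1, the adhesion molecule that neutrophils bind, rose from 40.1 ± 1.11 to 114.5 ± 2.42 FPKM (limma adjusted p = 7.34e-06). With the wider motif GGNNTTNCC, 53 of 2199 tested genes passed as higher (2.41%). The letters GGAATTTCC also stood before the RefSeq starts of CXCL5 and CXCL6, which were at 0.

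The genes whose profile over the 6 samples was most like the median of the 4 detected chemokines were found by the root mean square difference in log2(FPKM + 1), each gene taken relative to its NC mean, among 14014 genes. Among the closest were CARD17 (0.0535), AC139491.2 (0.0712), SAMD9 (0.0713) and IFIH1 (0.0829), a sensor of double-stranded RNA. IFIH1 had 7.38, 7.91 and 6.83 FPKM in NC and 49.98, 47.8 and 48.6 in OV-BRCA1 samples, without overlap. CARD17 shares its strand and position with CARD16, and AC139491.2 with other genes, so their values may hold reads of those genes. With 2 groups of 3, this likeness mainly ranks genes by the size of the difference between groups.

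Facts of the samples that bear on these values were checked. BRCA1 had 35.7, 40.8 and 34.9 FPKM in the OV-BRCA1 samples and 20.1, 14.9 and 21.7 in NC, every OV-BRCA1 sample above every NC sample, with a log2 difference of 0.95 (SE 0.143, limma adjusted p = 0.00373). Depth was estimated at 14.3 to 16.8 M fragments for OV-BRCA1 samples and at 16.03 to 20.2 M for NC samples. The epithelial markers KRT8, KRT17 and KRT18 were at 188 FPKM or more in all samples, while KRT5 and TP63, basal markers of squamous cells, were below 0.5, and KRT14 and CDH1 reached 0.675 and 0.896 at most. Within the list of 8, EPCAM, an epithelial adhesion molecule, rose from 2.59 ± 0.457 to 6.79 ± 0.860 FPKM (log2 difference 1.12, limma adjusted p = 0.00142), KRT18 rose by 0.39 (adjusted p = 0.000976) and KRT17 fell by 0.48 (adjusted p = 0.00263). Their part in the chemokine values was not tested.

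Leukocytes make these chemokines too, so their markers were read beside them. Of 14 leukocyte markers, PTPRC, CSF3R, FCGR3B, MPO and GP9 were at 0 in all samples and 10 were below 0.5 FPKM in every sample. Their sum was 36.9 to 41.9 FPKM in OV-BRCA1 and 25.0 to 28.5 in NC samples. It was carried by CD68, a lysosomal protein that rose by 2.63 on the log2 scale, and CD14, a co-receptor of Toll-like receptors that fell by 1.22 (limma adjusted p = 9.75e-05 and 0.000594). Of 6 stromal and endothelial markers, 5 were below 0.5 FPKM throughout, and their sum was 0.761 to 1.61 in OV-BRCA1 and 0.734 to 0.834 in NC samples. The part of CD68 and CD14 in the chemokine values was not tested.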

How the data were processed

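SiHa cells were harvested 48 h after transfection, mRNA was captured on beads, and libraries were made with the Hieff NGS MaxUp Dual-mode kit. The authors deposited FPKM per transcript, after removing reads with adapters, unknown bases or low quality. The submitters' processing notes name FastQC, HISAT2 and hg38 without saying their roles, and the annotation, the quantification tool and the use of strand are not given in the sources used here. The authors tested counts with DESeq, which could not be repeated on FPKM.

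The chemokines and the gene lists were chosen with earlier results of these data known. FPKM of 199167 transcripts was summed over 58174 genes, named by GENCODE release 29 (GRCh38), which holds 198868 of the transcripts. Genes that reached 0.5 FPKM in 3 samples or more (16321) were compared on log2(FPKM + 1) with limma 3.58.1 (R 4.3.3) with a mean-variance trend and Benjamini-Hochberg adjustment over all of them. A call needed an adjusted p below 0.05 and an absolute log2 difference above 1. On this scale the differences of low genes are understated. The test was checked on simulated data.

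Genes were named by a rule. It took the 6 chemokines, genes within 1 Mb of them, CXCL9, CXCL10 and CXCL11, BRCA1, the 5 genes closest in profile and all receptors. From each list it took the genes past the criterion (at most 6) and the 2 most abundant. Genes named outside it are stated. An item that the rule would name is left out. Marker genes of other cell types had a list of their own.

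Depth was estimated from the value of 1 fragment in 14216 genes with a single transcript. Only 31.5% to 37.1% of low values were within 0.1 of whole fragments, and no read counts were recovered from them. The estimates cover counting error only. Samples were grouped by the labels. Promoter sequences were from RefSeq, all 6 chemokines matched, and 3' UTRs and coding sequences were from the most abundant GENCODE transcript of each gene. For CXCL6, whose transcripts were all at 0, the longest was taken, and CXCL5, also at 0, has a single transcript. Alternatives were 0.1 as pseudocount, all genes above 0 in place of the filter, the most abundant transcript, 2 other scalings, the replicate number as a block and each sample left out in turn. Python 3.11.15, pandas 2.3.3, numpy 2.4.6, Biopython 1.88 and matplotlib 3.10.9 were used.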

Additional observations from a re-analysis of the deposited data

How the results depend on the processing

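The chemokines were chosen by this comparison, so their values under the alternatives show how far the numbers move and not how firm the difference is. With a pseudocount of 0.1 the log2 differences were 4.41 (CXCL8), 2.98 (CXCL1), 2.24 (CXCL2) and 2.13 (CXCL3), and with the most abundant transcript 4.43 (CXCL8), 2.36 (CXCL2) and 1.84 (CXCL3). Leaving out each sample in turn gave 4.17 to 4.26, 2.86 to 2.92, 2.09 to 2.19 and 1.70 to 1.78, in the order CXCL8, CXCL1, CXCL2 and CXCL3.

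Over all genes, 472 higher and 179 lower calls became 764 and 516 with a pseudocount of 0.1, which by its construction enlarges the differences of low genes, and were 476 to 486 and 166 to 219 with 1 sample left out. Among the neighbours, 1 higher call (EPGN) became 2 with a pseudocount of 0.1 or median-of-ratios scaling, through BTC, 0 with the most abundant transcript, and 1 to 2 with 1 sample left out (2 without OV-BRCA1 replicate 3 or NC replicate 3). In the cytokine list, 0 higher calls became 3 with a pseudocount of 0.1, 1 with the most abundant transcript and 0 to 1 with 1 sample left out (1 without NC replicate 1 or 3). Its lower calls, 0, became 1 with a pseudocount of 0.1 and were 0 to 1 with 1 sample left out (1, TNFSF14, without NC replicate 1). In the receptor and adaptor list, 1 higher call became 4 with a pseudocount of 0.1 and 1 to 2 with 1 sample left out (MYD88 joined without OV-BRCA1 replicate 3 or NC replicate 3), and with the most abundant transcript TLR4 replaced TLR3. In the NF-kB list, 1 higher call (RELB) became 2 others with the most abundant transcript (NFKB2 and TNFAIP3), and 0 lower calls were 0 to 1 with 1 sample left out. In the mRNA decay list, 0 lower calls became 1 with the most abundant transcript (HNRNPD, −1.65). BRCA1 passed the criterion without NC replicate 1 (1.00) or 3 (1.05) and with its most abundant transcript (1.13). Of 103 single genes, 12 changed sign under at least 1 alternative, and COX18 alone among them had an adjusted p below 0.05 as reported. With the most abundant transcript the log2 differences were 0.033 (COX18), 0.41 (TNFRSF1A), 0.000514 (NFKBIA), 0.22 (IKBKB), −0.37 (LCN2), 0.060 (NFKBID), −0.58 (ZFP36L1) and 0.55 (IKBKG). With median-of-ratios scaling they were 0.034 (TRAF2), 0.024 (TIAL1) and 0.013 (IKBKG), and with nuclear protein-coding scaling −0.024 (LCN2). With 1 sample left out the ranges were −0.025 to 0.81 (FOSL2), −0.14 to 0.052 (NFKBIA), −0.039 to 0.0355 (TRAF2), −0.078 to 0.061 (LCN2), −0.18 to 0.083 (IL18), −0.23 to 0.12 (TIAL1) and −0.15 to 0.21 (IKBKG). Causes were not tested.

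The replicate numbers did not pair the samples, with correlations of the deviations of same-numbered samples of −0.0244, 0.025 and 0.0136. The fit with the replicate number as a block changed no call by the criterion among the 103 single genes. By the adjusted p alone the block took C3 (0.0973), KHSRP (0.0808), RC3H1 (0.103), KRT8 (0.0813) and IL17RC (0.0583) past 0.05 and brought IL1R1 (0.0399), IRAK1 (0.0396) and ITGA2B (0.0499) below it. This moved the counts with an adjusted p below 0.05, higher and lower, from 7 and 1 to 9 and 0 among the receptors and adaptors, from 4 and 2 to 3 and 1 in the mRNA decay list, and from 11 and 1 to 11 and 0 in the list of other inflammatory factors. The 2 scalings moved the median of all genes by 0.03 and −0.03 on the log2 scale. CXCL3 in NC rests on 32 to 45 estimated fragments, the smallest number among the detected chemokines.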
